A study of Homo sapiens with 4 samples.

Results

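Interferon-stimulated genes are the genes that cells switch on after interferon binds its receptors. A fixed list of 59 genes under this name was read from the deposited transcript table by gene symbol, keeping rows marked as protein coding. It also holds 4 interferon receptor chains and 6 STAT and IRF factors, so not every member need be induced by interferon. Of the 59 members, 54 (91.5%) were listed, among 12120 genes with a protein-coding row. IFITM1, IFI27, RSAD2, CMPK2 and XAF1 had no row of any type and are named only. MDA-MB-231 cells were used, a long-established cultured line of human breast cancer of the triple-negative type. One group of 2 libraries received DMSO, the solvent, and the other group of 2 libraries received 10 µM KH-3, a small molecule that inhibits the RNA-binding protein HuR. Treatment lasted 24 h in both groups, and no interferon was named among the treatments. The study asked which mRNAs change when HuR is inhibited.

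The table gives a single value per transcript, the authors' mean normalised read count. This mean was taken over libraries, and which of them enter it is not stated. The paper's methods name a further group of libraries at 5 µM KH-3, which is not analysed here and may also be part of the mean. The contrast of KH-3 with DMSO is held in the table only as the authors' own fold changes and p-values, and is not analysed here. What follows therefore describes the levels of these genes over the pooled libraries. Depth and the spread between libraries are unknown, so a level has no error and neighbours in an order of levels cannot be told apart. A level here is the mean normalised read count per kb of transcript, summed over the protein-coding transcripts of a gene, which makes genes of different length comparable. The lowest count listed was 7.34 reads, so a gene that is not listed may still be transcribed at a lower count.

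Type I interferons bind the receptor pair IFNAR1 and IFNAR2, and interferon gamma binds IFNGR1 and IFNGR2. The receptors act through Janus kinases on STAT proteins. Complexes that contain STAT2 and IRF9 then bind the interferon-stimulated response element (ISRE) in promoters, while STAT dimers bind the gamma-activated site (GAS). The products of the induced genes sense foreign nucleic acids, block viral entry, destroy or silence viral RNA, and attach the ubiquitin-like protein ISG15 to other proteins. In tumour cells a part of this programme can run without added interferon.

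The promoters of the members carried the ISRE core far more often than other promoters did. RefSeq promoters (GRCh38.p14, 250 bases before to 50 bases after the start) were matched for 45 of the 59 members. The ISRE core searched was GAAA, any 2 bases, then GAAA, on both strands. It was found in 27 of the 45 genes (60%), compared with 4.38% of 27305 genes in the promoter table and 4.02% of those that also had a protein-coding row. Counted by promoter, it was in 31 of 61 (50.8%) compared with 3.57% of 35116. These shares describe what the members have in common at the sequence level, and the table holds no measure of binding at these places. The windows below were chosen to show the motif in the highest members, in neighbouring family members and in members that were not listed. Each is 30 bases on the strand of its gene with the ISRE core in capitals.

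IFITM3, chr11:320876-320905, minus strand: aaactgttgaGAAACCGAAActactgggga
ISG15, chr1:1013380-1013409, plus strand: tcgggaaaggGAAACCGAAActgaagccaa
IFIT1, chr10:89392510-89392539, plus strand: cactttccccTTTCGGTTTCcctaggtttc
IFIT5, chr10:89414513-89414542, plus strand: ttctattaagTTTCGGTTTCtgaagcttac
OAS3, chr12:112938452-112938481, plus strand: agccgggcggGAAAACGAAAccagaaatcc
MX1, chr21:41420559-41420588, plus strand: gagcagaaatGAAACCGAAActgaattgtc
GBP1, chr1:89065316-89065345, minus strand: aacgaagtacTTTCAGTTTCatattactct
GBP3, chr1:89022845-89022874, minus strand: aaagaagtacTTTCAGTTTCattaggctct
IFI44, chr1:78649761-78649790, plus strand: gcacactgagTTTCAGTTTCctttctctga
IFI44L, chr1:78620365-78620394, plus strand: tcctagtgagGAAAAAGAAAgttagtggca
DTX3L, chr3:122564322-122564351, plus strand: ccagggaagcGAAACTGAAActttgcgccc
PARP9, chr3:122564322-122564351, minus strand: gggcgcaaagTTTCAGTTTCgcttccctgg
IFITM1, chr11:314024-314053, plus strand: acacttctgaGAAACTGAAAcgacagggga
RSAD2, chr2:6877622-6877651, plus strand: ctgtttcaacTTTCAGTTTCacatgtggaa

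IFITM3, ISG15 and MX1 matched the same bases. IFIT1, IFIT5 and IFI27 matched them on the other strand, and DDX60 had them on its own strand. The match began 35 bases before the start site in IFITM3 and 107 before it in ISG15, but at base 12 after it in MX1. IFITM3 and ISG15 were among the 3 highest members and MX1 was among the lowest. The DTX3L and PARP9 windows are a single place read on opposite strands. It lies before a RefSeq start site of PARP9 and runs across a RefSeq start site of DTX3L. The genes run in opposite directions, and by the GENCODE 44 gene ends they overlap by 239 bases. IFI44L had the motif at 2 places, 164 and 73 bases before its start site, and both windows had the same sequence. IFITM1 and RSAD2 carried the motif and were not listed.

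**Figure D1:**
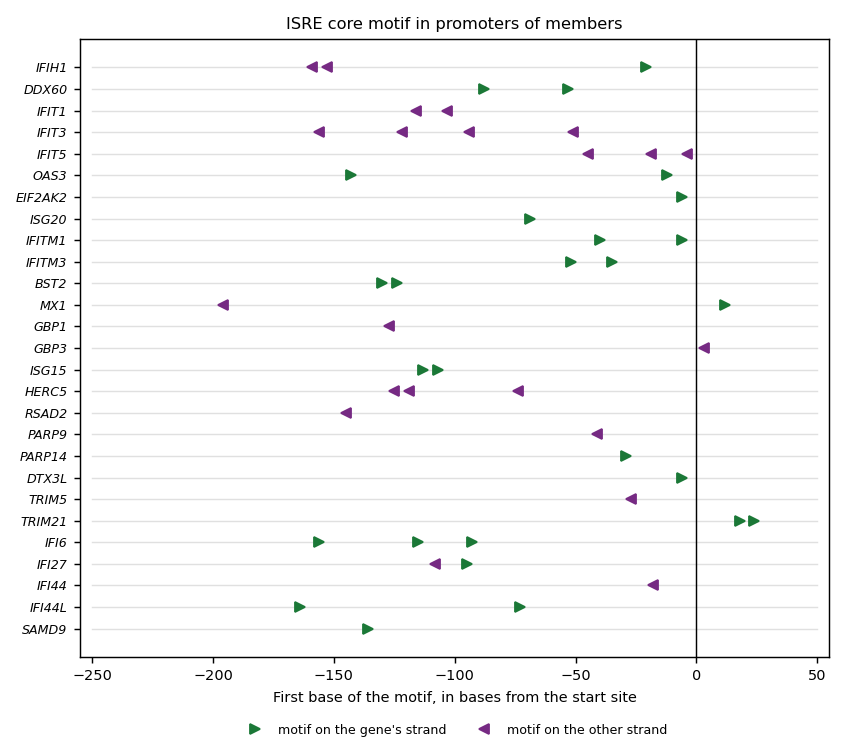
Position of the first base of each ISRE core match, in bases from the RefSeq start site, for the 27 members with a match. Triangles pointing right mark matches on the strand of the gene and triangles pointing left mark the other strand. Of 49 places counted per member, 45 began within 200 bases before the start site.

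The members had 49 ISRE places, or 48 when the place shared by PARP9 and DTX3L is counted once. Matches that overlap each other were counted as separate places, which was the case in HERC5, IFIH1, ISG15, BST2 and TRIM21. Of the 49, 24 began within 100 bases before the start site and 4 began after it. The plot of motif positions shows IFIT3 with 4 places over 2 start sites, the most of any member, and IFIT5, IFI6, HERC5 and IFIH1 with 3 each. The 2 motifs overlapped in 5 member promoters. The GAS motif (TTCNNNGAA, both strands) was found in 11 of the 45 genes (24.4%), compared with 9.38% of all genes. It was in 19.7% of member promoters and 7.66% of all promoters. IRF1, IRF9, OAS1 and IFI35 had a GAS match and no ISRE core. The other 7, namely IFITM1, IFI27, MX1, GBP3, PARP14, BST2 and DDX60, had both.

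The levels of members with and without the ISRE core overlapped over most of their range. The 24 listed members with the motif had a median level of 172 reads per kb, from 1.99 for IFI44L to 3144 for IFITM3. The 16 listed members with a promoter in the table and no match had a median of 123, from 6.75 for IRF9 to 664 for ADAR. The level of the median gene, 117, was reached by 14 of the 24 and by 8 of the 16. No test was made between them.

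As a list, the members, with the receptors and the STAT and IRF factors included, sat at the middle of the transcriptome of these cells. The median level of the 54 members was 119 reads per kb, compared with 117 for all genes, and 27 members were at or above the median gene while 27 were below. The middle 50% of members spanned 52.0 to 272 reads per kb, a narrower range than the 36.6 to 306 of all genes. The highest 10% of all genes held 3 members (5.56%) and the lowest 10% held 6 (11.1%). As RNA of all cells was pooled, fewer expressing cells and less RNA per cell cannot be told apart. The extremes were far apart, with IFITM3 1579-fold above IFI44L. Together the members made up 0.446% of the genes and 0.294% of the summed level. IFITM3 alone gave 22.1% of the members' sum, and IFITM3, IFITM2 and ISG15 together gave 39.5%.

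**Figure D2:**
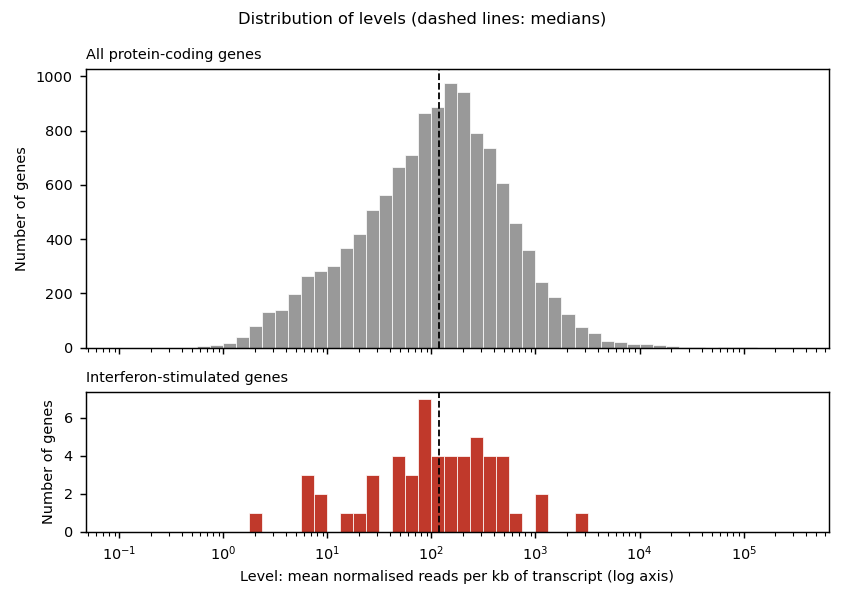
Number of genes by level, in mean normalised reads per kb of transcript on a log axis, for all 12120 protein-coding genes (upper panel) and the 54 listed interferon-stimulated genes (lower panel). Dashed lines mark the medians, 117 for all genes and 119 for the members.

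The reads behind these levels set how far each value can be relied on. The protein-coding rows of a member held between 11.7 and 4264 reads, with a median of 340 compared with 349 for all genes. ADAR had the most and IFI44L the fewest. Under 30 reads were found for 7 members, namely IRF7, IRF9, IFI16, ISG20, MX1, MX2 and IFI44L, and at least 1000 reads for 10. With rows of at least 20 reads, 6 members were lost from the list (IFI16, IFI44L, IRF3, IRF7, IRF9 and ISG20).

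The cell line was checked against its markers. All 7 markers of MDA-MB-231 were above the median gene, among them vimentin (VIM, 3786 reads per kb), KRT18 (3542) and EGFR (1242). The receptors ESR1 and PGR and the epithelial cadherin CDH1 were not listed, and ERBB2, GATA3 and EPCAM lay between 24.1 and 43.3. The leukocyte markers PTPRC, CD3E and CD14 were not listed. Endothelial markers reached 4.08 and fibroblast markers 29.7 reads per kb.

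All 4 receptor chains were listed. IFNGR1, which binds interferon gamma, had the highest level at 360 reads per kb, in the 78.5th percentile of all genes. Its partner IFNGR2, which is needed for signalling, was at 245. IFNAR1 was at 153 and IFNAR2 at 51.9, in the 31.3rd percentile. IFNAR1 and IFNAR2 form the type I receptor, and the latter was the receptor chain below the median gene. IFNAR2 shared 44.3% of its 31-base words with the annotated read-through gene IFNAR2-IL10RB, which has no row in the table, so reads of the shared stretch could have been divided differently by another annotation. The IFNAR2 level was spread over 3 transcripts, of which the longest held 75.7%.

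The transcription factors were the lowest role group with complete listing, with a median of 37.2 reads per kb and 1 of 6 at or above the median gene. That gene was IRF2, which binds the same sites as IRF1 and opposes it, at 123. STAT2, the STAT of the type I response, was at 81.6. IRF1, an activator induced by interferon gamma, was at 44.5. IRF3, which is activated by the nucleic acid sensors, was at 29.9. IRF7, which amplifies interferon production, was at 7.64. IRF9, the DNA-binding partner of STAT2, was at 6.75, in the 6.44th percentile.

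For 3 of these factors most of the listed RNA was in transcripts that are not annotated as coding. The protein-coding rows held 4.10% of the IRF9 level over all transcript types. A retained-intron transcript of 648 bases carried 128 reads per kb of a total of 165, and counting all types moved IRF9 from the 6.44th to the 59.6th percentile. The main coding IRF9 transcript shared 92.9% of its words with an overlapping gene that is annotated under a clone name, whose row in the table held 51.3 reads, so the split of reads between these genes is uncertain. For STAT2 the coding share was 20.7%, and a processed transcript of 3278 bases with 574 reads exceeded the main coding row with 134. For IRF3 it was 29.5%, with transcripts subject to nonsense-mediated decay taking the largest part. STAT2 and IRF3 moved to the 79.2nd and 48.6th percentiles with all types counted.

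Among the nucleic acid sensors, DDX58 stood apart. DDX58 (RIG-I), which recognises viral RNA ends, had a level of 232 reads per kb. DDX60, a related helicase, was at 67.8. IFIH1 (MDA5), which senses long double-stranded RNA, was at 43.2. DHX58 (LGP2), which modulates both, was at 30.8. IFI16, a sensor of DNA, was lowest at 6.91 from a single transcript of 18.0 reads. DDX58 was thus 5.38-fold above IFIH1, but 96.6% of its words were also found in an overlapping unnamed gene of the later annotation that has no row in the table.

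The IFIT family was the group in which every member lay above the median gene. IFIT proteins bind foreign RNA and stop its translation. Levels were 416 reads per kb for IFIT3, 379 for IFIT1, 257 for IFIT2 and 242 for IFIT5, a range of 1.72-fold. All 4 lie together on chromosome 10 (hg38, from 89283694 to 89421605). IFIT1 and IFIT5 were each represented by 1 coding transcript. The level of IFIT3 was divided between 2 transcripts of nearly equal length, the larger with 56.7%, and that of IFIT2 among 3, the largest with 53.4%.

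RNA-directed effectors covered a 49.3-fold range. ADAR, which edits adenosine to inosine in double-stranded RNA, was highest at 664 reads per kb. EIF2AK2 (PKR), the kinase that halts translation on sensing double-stranded RNA, was at 498.5, with 59.8% in its shortest coding transcript. The oligoadenylate synthetases, which activate RNase L, differed among themselves. OAS3 was at 182, OAS1 at 88.3 and OAS2 at 13.5, and OASL, which lacks the synthetase activity, was at 79.9 with 58.4% in its main transcript. ISG20, an RNA exonuclease, was at 17.9. The OAS2 and ISG20 levels rested on 2 weak transcripts each, with 58.2% and 51.7% in the larger.

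Membrane restriction factors held the highest levels of the list. IFITM3, which blocks fusion of viruses in endosomes, was at 3144 reads per kb, in the 98.7th percentile. IFITM2 was at 1323, in the 95.5th percentile. BST2 (tetherin), which holds budding virus at the cell surface, was at 71.4. The IFITM genes are close copies of each other that lie together on chromosome 11. Of the 31-base words of IFITM3, 46.8% were found in another gene and 23.4% in IFITM1, which was not listed. For IFITM2 these shares were 26.0% in another gene and 15.2% in IFITM3. The division of reads among these copies is therefore uncertain.

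**Figure D3:**
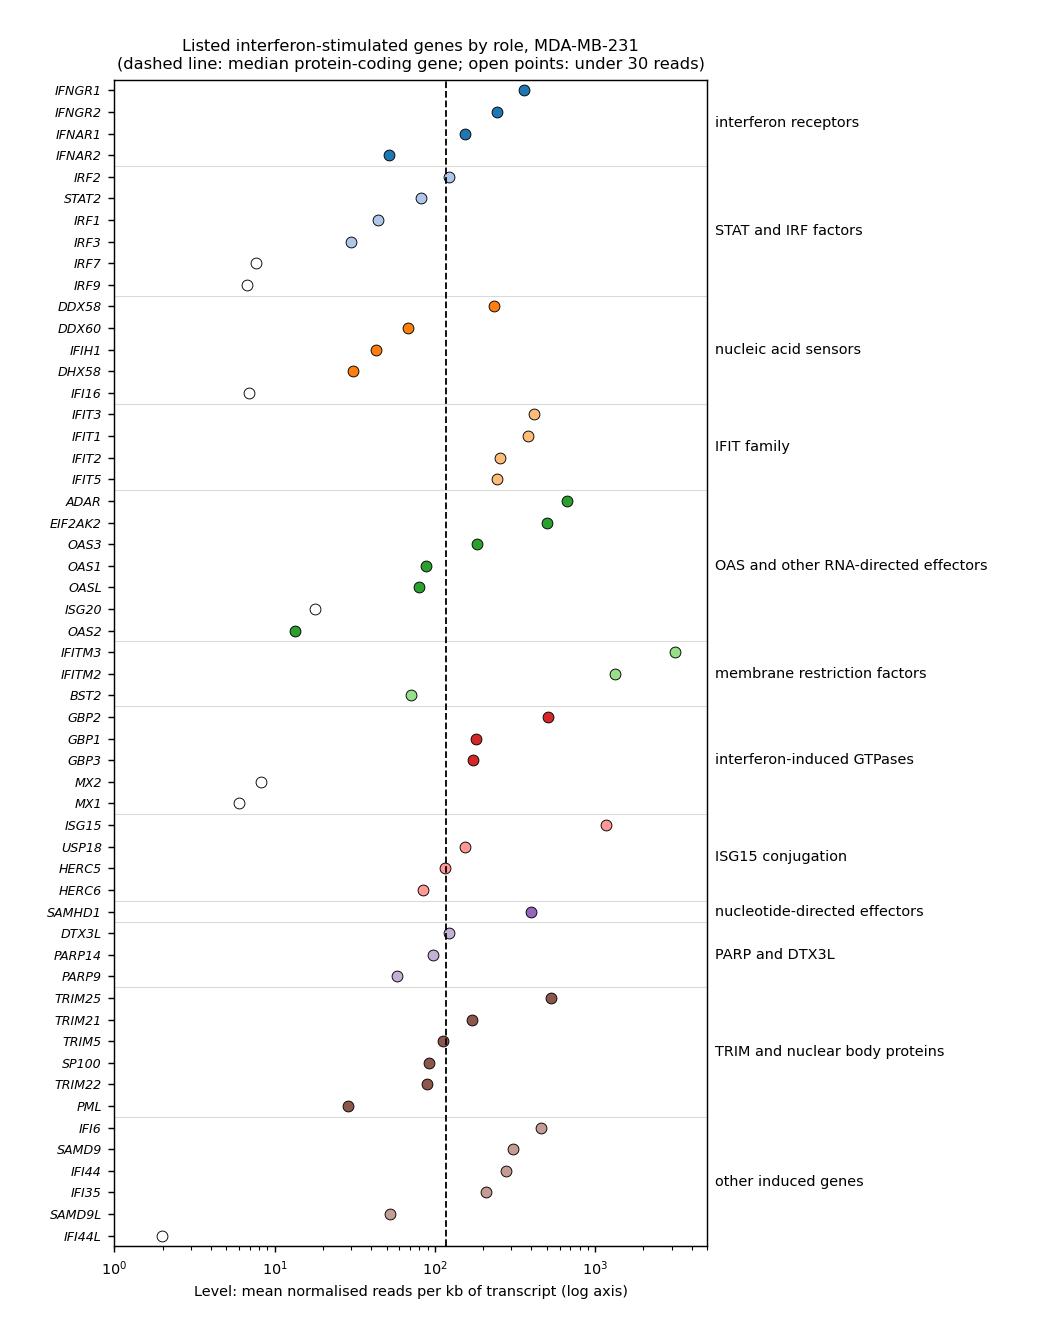
Level of each of the 54 listed members in mean normalised reads per kb of transcript (log axis), grouped by role. Each point is the authors' single mean, open points mark the 7 members with under 30 reads, and the dashed line marks the median gene at 117. All 4 IFIT genes lie to the right of the line and 5 of the 6 STAT and IRF factors lie to its left.

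The interferon-induced GTPases fell into a high and a low family. The guanylate-binding proteins, which attack the vacuoles of intracellular pathogens, were at 510 for GBP2, 180.0 for GBP1 and 174 for GBP3. MX1 and MX2, which trap viral nucleocapsids, were at 5.97 and 8.18 reads per kb. Each MX value came from 1 transcript of under 30 reads (20.7 for MX1 and 24.9 for MX2). GBP1 shared 26.8% and GBP3 11.9% of their words with other genes, and GBP1 was the leading partner of GBP3. Both families are known to be induced by interferon, and in these cells they lay on opposite sides of the median gene.

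In the ISG15 pathway the modifier itself was abundant. ISG15 was at 1160 reads per kb, in the 94.6th percentile, with 98.9% in 1 transcript. USP18, the protease that removes ISG15, was at 155, although 62.3% of its words were found in another gene and 33.0% in its copy USP41. HERC5, the main ISG15 ligase, was at 116 and its relative HERC6 at 84.0. The modifier thus lay 10.0-fold above its ligase. From the list of other induced genes, UBE2L6, the conjugating enzyme of the pathway, was at 243 and UBA7, its activating enzyme, at 26.1.

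SAMHD1, which destroys the nucleotides needed for reverse transcription, was at 396 reads per kb from a single transcript of 1893 reads. It was the listed member of its group, since RSAD2 (viperin) and CMPK2, which lie next to each other on chromosome 2, were not listed. The ADP-ribosylation genes were close together. DTX3L, a ubiquitin ligase, was at 122, PARP14 at 97.8 and PARP9, the partner of DTX3L, at 58.3.

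TRIM25, the ubiquitin ligase that activates RIG-I, was the highest TRIM gene at 527 reads per kb. TRIM21, an intracellular antibody receptor, was at 171 and TRIM5, which recognises retroviral capsids, at 113. SP100 and PML, which build nuclear bodies, were at 91.7 and 28.7. Both were divided among many transcripts, with 21.9% of SP100 and 45.1% of PML in the largest coding row. TRIM22 was at 88.6, but its single row was a fragment of 508 bases with incomplete ends.

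The remaining induced genes ranged over 231-fold. IFI6, a small membrane protein that restrains cell death, was at 460 reads per kb. SAMD9, an antiviral factor that blocks translation, was at 308, IFI44 at 278 and IFI35 at 207. SAMD9L, a close relative of SAMD9, was at 52.1. IFI44L was the lowest of all listed members at 1.99, in the 0.800th percentile, from 11.7 reads over 5874 bases. IFI35 and SAMD9L held 57.1% and 59.7% in their main transcripts.

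Transcript structure varied among the members about as it did among all genes. A single coding row was listed for 23 members (42.6%), compared with 36.7% of all genes. Among the 31 members with more than 1, the median share of the main transcript was 61.0%, compared with 67.5% for all genes. It was under 60% in 13 of them, which also include STAT2 (50.3%), IRF3 (57.2%) and TRIM5 (50.6%). Beside 107 coding rows the members had 49 rows of other types, of which 28 were retained introns, 11 were targets of nonsense-mediated decay and 10 were processed transcripts. The coding rows held under 75% of the level in 11 members (20.4%), compared with 27.5% of all genes. The transcript chosen as representative in the MANE set was listed for 45 of the 54 (83.3%), compared with 86.1% of all genes. It had no row for IRF3, IRF7, IFIH1, IFI16, MX1, ISG15, SAMHD1, PARP9 and TRIM22.

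**Figure D4:**
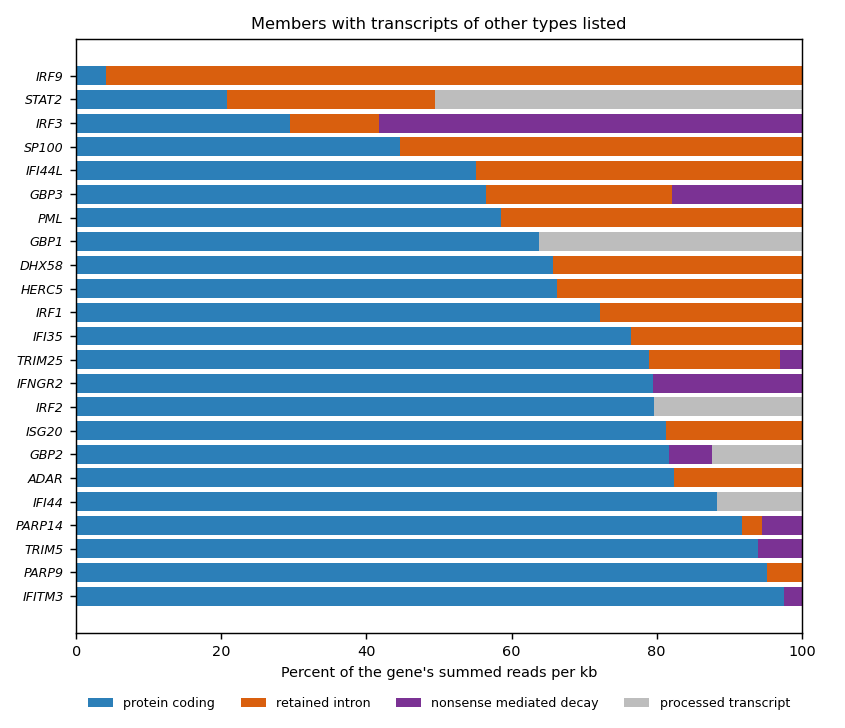
Percent of the summed reads per kb in each transcript type, for the 23 members that had rows of other types. Bars are ordered by the protein-coding share, from 4.10% for IRF9 to 97.6% for IFITM3.

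Members that lie close together did not always share a level. A pair here is 2 members of the list that follow each other along a chromosome, and genes not on the list may lie between them. The widest gap between 2 such members with both levels was 58712 bases, for IFNAR2 and IFNAR1. IFI44L and IFI44 are separated by 3651 bases on chromosome 1 and differed 139-fold, from 1.99 to 278 reads per kb. OAS3 and OAS2 are 1935 bases apart on chromosome 12 and differed 13.6-fold, and SAMD9 and SAMD9L on chromosome 7 differed 5.92-fold. These were the 3 widest gaps among the 15 neighbouring pairs with both levels. At the other end, GBP3 and GBP1 differed 1.04-fold, IFIT3 and IFIT1 1.10-fold, and MX2 and MX1 1.37-fold. PARP9 and DTX3L, which share an ISRE place in their promoters, differed 2.09-fold.

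**Figure D5:**
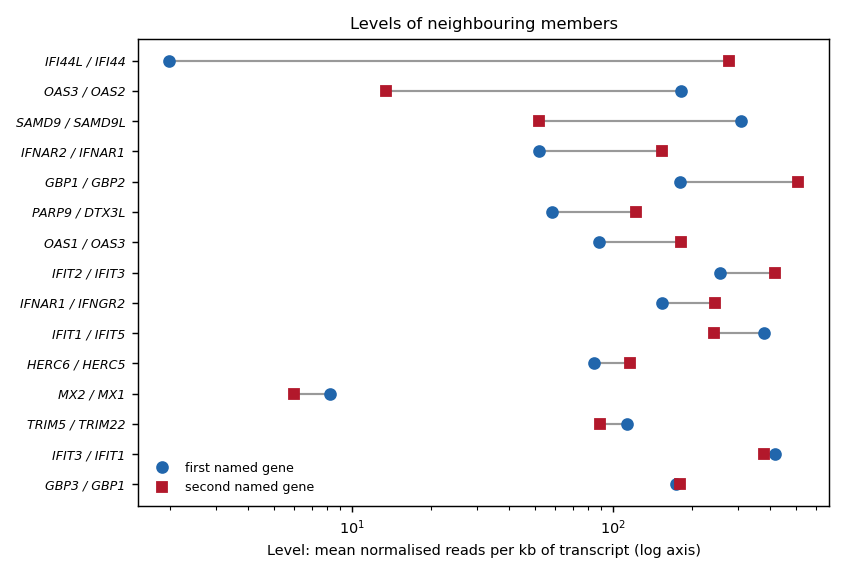
Levels of members of the list that follow each other along a chromosome, in mean normalised reads per kb of transcript (log axis). Genes that are not on the list may lie between them. Circles mark the first gene named, squares the second, and pairs run from the widest difference (IFI44L and IFI44, 139-fold) at the top to the narrowest (GBP3 and GBP1, 1.04-fold) at the bottom.

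HuR binds AU-rich stretches in the 3′UTR of mRNAs, so these were counted in the representative transcript of each listed member (GENCODE 44). The pentamer AUUUA was present in 39 of the 54 members (72.2%), compared with 74.96% of 11915 listed genes. The longer UAUUUAU was present in 16 (29.6%), compared with 37.4%. The 3′UTRs of the members were shorter, with a median of 1040 bases against 1390, and the median density of AUUUA was 1.28 per kb against 1.80. SAMD9L had the most UAUUUAU motifs at 3, followed by EIF2AK2, TRIM5 and USP18 with 2 each. EIF2AK2 had the most AUUUA motifs, 22 in 8063 bases. The transcript counted there held 22.3% of the EIF2AK2 level, and 59.8% was in a transcript of only 1533 bases. The representative transcript had a row for 45 of the 54 members and was not always the main one, so the 3′UTR counted can differ from that of the main listed transcript. No AUUUA was found in 15 members, including IFITM2, IFITM3, ISG15, IFNGR1, STAT2, IRF3, IRF7 and IRF9. The motif counts describe the reference sequence and do not measure binding. The paper sequenced RNA that came down with a HuR antibody from MDA-MB-231 cells (RIP-seq), and those data are not analysed here.

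Other genes of the pathway were read in the same way. None of the 9 interferon genes on the list (IFNA1, IFNA2, IFNB1, IFNE, IFNG, IFNK, IFNL1, IFNL2 and IFNL3) was listed. All 17 other signalling genes were listed, 11 of them at or above the median gene, with a median of 190 reads per kb. The highest were the kinase JAK1 (443), STAT3 (432) and the kinase TYK2 (403). The lowest were the inhibitor SOCS1 (8.62), JAK2 (33.6) and the type III interferon receptor chain IFNLR1 (46.6).

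Of 30 further induced genes, 26 were listed, with a median of 82.4 reads per kb and 11 at or above the median gene. LAP3, an aminopeptidase, was highest at 526, followed by ZNFX1 (294) and UBE2L6 (243). MOV10 (2.41), NT5C3A (8.91) and LY6E (9.64) were lowest. RTP4, CXCL10, CCL5 and SLFN11 were not listed. The median of this second list was below that of the 54 members (119), and no test was made between the lists.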

How the data were processed

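RNA-seq libraries of MDA-MB-231 cells were made with an mRNA kit, 2 for DMSO and 2 for 10 µM KH-3. The authors aligned reads by STAR against GENCODE v24 transcripts, estimated reads per transcript with eXpress and compared groups with DESeq2 (tool versions not given in the sources used here), and the processing notes name hg38. The deposited table holds 1 signal per transcript, the authors' mean normalised read count. Another 3 columns hold the authors' own comparison (log2 fold change, p-value and q-value) and were not used. Without values per library, no test, SD, interval or depth could be given.

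Here, the mean of each protein_coding row was divided by its length in kb and summed per gene (Python 3.11.15, pandas 2.3.3, numpy 2.4.6). The percentile of a gene was taken among all genes with such a row. The script was tested on simulated data. Gene positions and 3′UTRs came from GENCODE 44 on hg38, promoters from RefSeq GRCh38.p14. No protein table was used, so a planned alignment of family proteins was not run.

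The members, their roles and the other lists were chosen with earlier results of these data known. Values were to be printed for the highest and lowest listed member of each role, the top and bottom 5 members, members whose main transcript held under 60% of the level, all receptors and STAT and IRF factors, and the highest and lowest 3 genes of each pathway list. All other values, the comparison of neighbouring genes, the 3′UTR motifs and the shared sequence words were added after the data were seen.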

Additional observations from a re-analysis of the deposited data

How the results depend on the processing

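No paired analysis was possible because the table has no values per library, and for the same reason no library could be left out. The median member level was 119 reads per kb against 117 for all genes. It was 160 against 108 with rows of any type, 154 against 135 with rows of at least 20 reads, 113 against 85.7 with the highest row of each gene, and 130.1 against 129 with 200 bases taken off each length. Without the 11 members that shared 10% or more of their sequence words, an alternative chosen after seeing the data, it was 97.8 against 117. The words were read from GENCODE 44, in which the main transcript of 52 members was found. Those of ISG15 and IFIH1 were not found, so these members were kept without being checked. The percentile of the member median therefore lay between 45.3 and 58.99. The share of members at or above the median gene stayed between 46.3% and 59.3% over these alternatives and over levels not divided by length. With rows of at least 20 reads, 48 members were listed in place of 54. The share of member genes with the interferon-stimulated response element (ISRE) core rose from 60% to 80% when 1 mismatch was allowed, and that of all genes from 4.38% to 37.7%. Single members moved by over 10 percentile points in 10 cases with rows of any type, 2 with at least 20 reads, 1 with the highest row, 1 with the shorter length and 19 without division by length. The largest moves were those of IRF9 from 6.44 to 59.6, OAS2 from 12.2 to 1.40, SP100 from 43.6 to 20.3, TRIM22 from 42.8 to 53.1 and IFI6 from 83.4 to 52.0, in that order. The depth of the libraries is unknown.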
